A study of Mus musculus with 10 samples.

Results

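Naive T cells are known by a set of transcripts, some of which keep the cells at rest or in circulation. Across 4 groups of mouse arrays, 9 genes of this set were followed here: Lef1, Tcf7, Satb1, Klf2, Bach2, S1pr1, Il7r, Dapl1 and Igfbp4. The genes were chosen by symbol, and each was read from the probe set annotated to it, taking that with the highest mean where a gene had more than 1. Of the 9 genes, 8 had a probe set, out of 19505 genes with one on the array. Tcf7 was not analysed here. All 8 lay above the 40th percentile of their own array on every array, so none was lost to the filter on low values that left 13393 genes tested.

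The arrays carry RNA from mice that had been given transduced CD4+ T cells, collected 6 months after transfer into immunocompromised hosts. Vav1 spleen (4 arrays, animals ONCO1 to ONCO4) and Vav1 lymph node (2 arrays, ONCO2 and ONCO3) came from hosts of cells labelled WT + Oncogenic Vav1. GFP spleen (2 arrays, CTL2 and CTL4) and GFP lymph node (2 arrays, CTL1 and CTL2) came from hosts of cells labelled WT + GFP. The strain label is C57BL/10 in all groups, Vav1 is an exchange factor that relays T cell receptor signals, and GFP is the fluorescent protein that serves as the control. The 10 arrays come from 7 animals, 3 of which gave both tissues. The labels used here do not name the Vav1 variant, the vector's promoter, the host strain or the lymphocytes that the hosts still had, which limits what a group stands for as a model.

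The cell type label is CD4+ T cells, but transcripts of other cells were abundant. Cd79a and Ms4a1, both B cell genes, lay at or above percentiles 95.3 and 91.0 of every array, and the T cell genes Cd3e, Cd4 and Cd8a at or above 82.4, 76.4 and 79.4. The values are therefore those of mixed samples, in which fewer cells of a type and less RNA per cell cannot be told apart. The lymph node array of animal ONCO3 (Vav1 lymph node replicate 2) stood apart. Its mean over Cd3d, Cd3e and Cd3g was 8.18, against 9.55 on Vav1 lymph node replicate 1, and its mean over 5 red cell genes was 11.3 against 9.10. As deposited, the lymph node changes of the naive T cell genes and the tissue differences that passed are given with and without it. Values relative to CD3 or B cell genes, and the counts over gene lists, are given with it only.

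In a resting naive T cell, Lef1 and Tcf7, DNA-binding proteins of the TCF/LEF family, and the chromatin organiser Satb1 hold the naive program of transcription, while Bach2 represses effector genes. Klf2 drives transcription of S1pr1, the receptor for sphingosine 1-phosphate that lets T cells leave lymphoid organs for the blood, and the receptor chain encoded by Il7r carries the survival signal of interleukin 7. These transcripts are known to be lowered when a T cell is activated and becomes an effector cell. S1pr1, Klf2 and Bach2 are also transcribed by mature B cells.

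The promoters of the genes were read from RefSeq on build GRCm38.p6, as windows of 250 bases before to 50 bases after an annotated start. They are shown as background, because the factors that bind these motifs include products of the genes themselves. The part of these factors in the changes was not tested. Capitals mark motif matches on either strand: CTTTGA for the TCF/LEF core, GTAAACA for the FOXO core, CCACCC for the KLF box and CCGGAA for the ETS core. A match on the opposite strand appears as the reverse complement of its motif. All 4 windows below lie on the plus strand. Lef1 has 4 annotated windows, and the first (chr3:131110047-131110346) and the fourth (chr3:131156044-131156343) are shown beside those of Dapl1 (chr2:59484403-59484702) and Bach2 (chr4:32417185-32417484).
Lef1 window 1: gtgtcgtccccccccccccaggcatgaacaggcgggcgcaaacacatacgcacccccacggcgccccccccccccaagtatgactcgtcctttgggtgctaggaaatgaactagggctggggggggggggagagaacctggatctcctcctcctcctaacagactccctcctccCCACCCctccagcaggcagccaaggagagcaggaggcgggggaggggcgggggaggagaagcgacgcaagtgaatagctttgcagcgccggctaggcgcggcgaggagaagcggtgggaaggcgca
Lef1 window 4: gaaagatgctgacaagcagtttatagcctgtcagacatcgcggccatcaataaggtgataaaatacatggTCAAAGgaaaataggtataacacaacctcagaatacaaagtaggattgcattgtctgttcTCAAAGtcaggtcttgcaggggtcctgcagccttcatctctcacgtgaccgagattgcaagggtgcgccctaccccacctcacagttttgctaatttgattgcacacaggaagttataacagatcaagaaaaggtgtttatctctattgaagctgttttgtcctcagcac
Dapl1: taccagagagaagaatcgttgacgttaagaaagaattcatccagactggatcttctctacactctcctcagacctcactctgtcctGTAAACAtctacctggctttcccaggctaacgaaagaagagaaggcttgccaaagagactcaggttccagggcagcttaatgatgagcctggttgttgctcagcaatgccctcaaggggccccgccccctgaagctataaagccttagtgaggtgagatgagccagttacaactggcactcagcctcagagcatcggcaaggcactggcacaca
Bach2: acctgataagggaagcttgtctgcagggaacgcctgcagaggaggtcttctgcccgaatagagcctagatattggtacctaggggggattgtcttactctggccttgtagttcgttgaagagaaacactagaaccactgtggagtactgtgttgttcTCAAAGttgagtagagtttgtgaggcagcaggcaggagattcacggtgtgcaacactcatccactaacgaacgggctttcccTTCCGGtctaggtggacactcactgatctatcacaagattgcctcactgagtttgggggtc

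The first Lef1 window held a KLF box that begins 76 bases before the start (position -76). The fourth held 2 TCF/LEF cores on the opposite strand, at -180 and -120. Dapl1 held a FOXO core at -164, and Bach2 held a TCF/LEF core at -93 and an ETS core at -11. The fourth Lef1 window and the Bach2 window lie inside their genes, downstream of the annotated gene start, and need not be the main promoters. All TCF/LEF cores found lie in these windows. Over the 16 windows of 8 genes (Tcf7 among them, with no window for S1pr1), the KLF box was found in 8 windows, or 50% of them, against 31.5% of all 32851 windows of that length. The 8 windows belong to 4 genes, and windows of a gene can overlap. The other motifs were found in 2 windows each, or 12.5%, against 16.0% of all windows for the TCF/LEF core, 3.65% for the FOXO core and 14.9% for the ETS core. The motifs do not overlap one another in these windows. A match describes the letters and shows no binding.

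**Figure D1:**
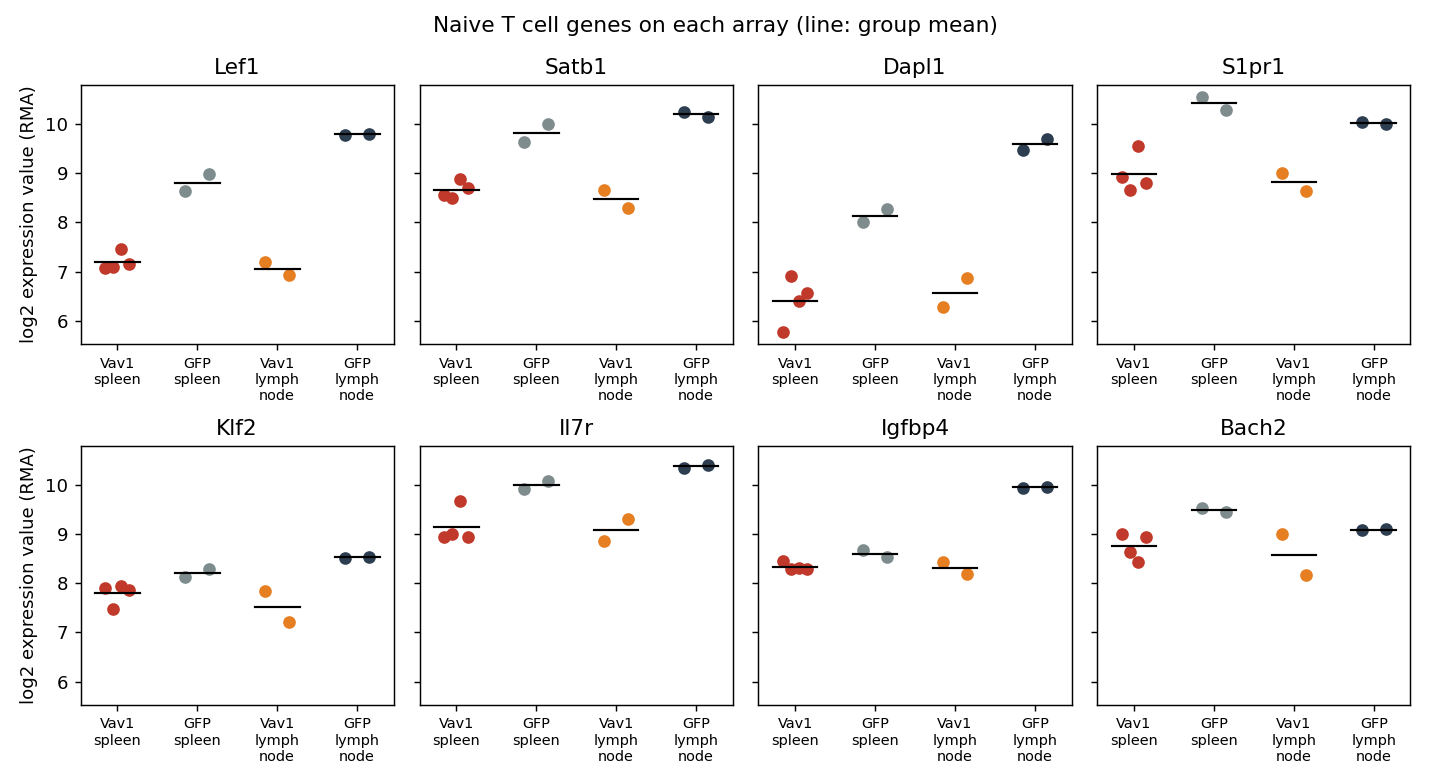
The log2 expression value of 8 genes on each of the 10 arrays, with Vav1 groups left of their GFP groups; points are arrays and lines are group means. For every gene the Vav1 arrays of a tissue lie below the GFP arrays of that tissue, and the values can be compared within a panel, not between panels.

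In the spleen, where the question is which transcripts differ with oncogenic Vav1, all 8 genes were lower on every Vav1 array than on either GFP array, and 6 passed the test. Such a separation was seen for 25.2% of all genes tested. The 6 genes that fell were Dapl1, Lef1, S1pr1, Satb1, Il7r and Bach2. At the threshold of adjusted p under 0.05, 9.77% of all genes were lower and 17.1% were higher. The median change of the 8 genes was -1.01 on the log2 scale, beside 0.00 over all genes. With the median intronic control of each array as a covariate, Lef1, Satb1 and Bach2 still passed. Dapl1 (adjusted p = 0.085), S1pr1 (adjusted p = 0.061) and Il7r (adjusted p = 0.43) lost their calls. The control was itself higher on the GFP spleen arrays (5.87 and 5.69) than on the Vav1 spleen arrays (5.43 to 5.55). This fit therefore cannot fully separate the control from the construct.

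Lef1 measured 7.08, 7.10, 7.46 and 7.15 in Vav1 spleen, against 8.64 and 8.98 in GFP spleen. The Vav1 values stood close together and far under both GFP values, with replicate 3 the highest of them. The change was -1.61 (SE 0.15), or 3.06-fold lower, with an adjusted p of 0.0002 by limma.

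Satb1 measured 8.56, 8.50, 8.89 and 8.70 in Vav1 spleen, against 9.64 and 10.01 in GFP spleen. The groups did not overlap. Satb1, which folds chromatin into loops in T cells, fell by 1.16 (SE 0.16, adjusted p = 0.0011).

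Bach2 measured 9.00, 8.64, 8.43 and 8.93 in Vav1 spleen, against 9.52 and 9.44 in GFP spleen. The Vav1 values spread more widely than the GFP values, without reaching them. The change of this transcriptional repressor was -0.73 (SE 0.22, adjusted p = 0.034), and the call was lost in 6 of the 10 fits that each left out 1 array, with adjusted p up to 0.18.

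Klf2 measured 7.91, 7.48, 7.94 and 7.87 in Vav1 spleen, against 8.13 and 8.29 in GFP spleen. The gap between the groups was narrow beside the low value of replicate 2. Klf2 did not pass the test, with a change of -0.41 (SE 0.19, adjusted p = 0.13).

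S1pr1 measured 8.92, 8.66, 9.55 and 8.80 in Vav1 spleen, against 10.56 and 10.29 in GFP spleen. Replicate 3 was again the highest Vav1 value. The exit receptor fell by 1.44 (SE 0.22, adjusted p = 0.0018), or 2.71-fold.

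Il7r measured 8.95, 9.00, 9.67 and 8.93 in Vav1 spleen, against 9.91 and 10.07 in GFP spleen. Replicate 3 came near the GFP arrays and the other 3 stayed together well below. The change was -0.85 (SE 0.21, adjusted p = 0.015), a call lost without either GFP spleen array, with adjusted p up to 0.11.

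Dapl1 measured 5.77, 6.91, 6.41 and 6.56 in Vav1 spleen, against 8.00 and 8.28 in GFP spleen. Dapl1, a transcript abundant in naive T cells, had the widest spread of the 8 genes in Vav1 spleen. It fell by 1.73 (SE 0.28, adjusted p = 0.0022), or 3.32-fold, the largest fall among the 8. Its Vav1 values lay low on their arrays, at percentiles 41.9, 59.6, 51.4 and 53.8, and that of replicate 1 was close to the filter at the 40th.

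Igfbp4 measured 8.45, 8.30, 8.31 and 8.29 in Vav1 spleen, against 8.68 and 8.53 in GFP spleen. The groups were separated by a small margin. Igfbp4, a secreted binding protein of insulin-like growth factors, did not pass the test, at -0.26 (SE 0.12, adjusted p = 0.12).

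**Figure D2:**
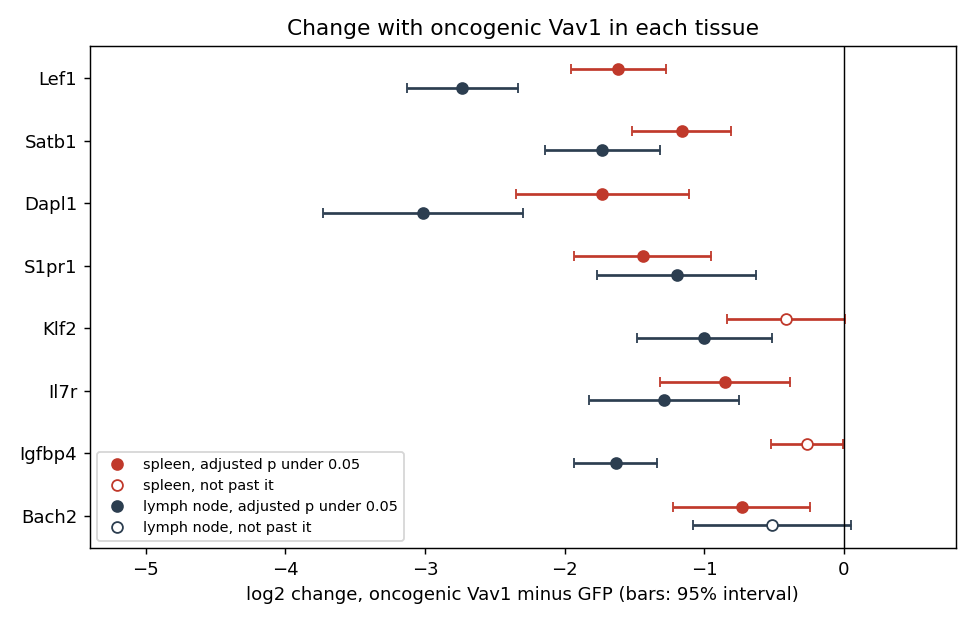
Log2 change of each gene, oncogenic Vav1 minus GFP, in spleen (red) and lymph node (dark blue), with bars for the 95% interval; filled points passed an adjusted p of 0.05 and open points did not. Spleen changes run between -1.73 and -0.26 and lymph node changes between -3.01 and -0.51.

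In the lymph node, all 8 genes were again lower on both Vav1 arrays than on both GFP arrays, as were 28.8% of all genes tested. Of the 8, 7 fell, and Bach2 did not pass the test. Over all genes, 10.8% were lower and 7.87% were higher. The median change of the 8 genes was -1.46, beside -0.02 over all genes. When the 4 lymph node arrays were fitted alone, Lef1, Satb1, Dapl1 and Igfbp4 still passed, while S1pr1 (adjusted p = 0.054), Il7r (adjusted p = 0.055) and Klf2 (adjusted p = 0.13) did not. The 2 GFP arrays lay within 0.24 of each other for every one of these genes, while the 2 Vav1 arrays differed by up to 0.83.

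Lef1 measured 7.20 and 6.93 in Vav1 lymph node, against 9.78 and 9.81 in GFP lymph node. The Vav1 values lay in the range seen in Vav1 spleen or just under it. Lef1 fell by 2.73 (SE 0.18, adjusted p = 1e-05), or 6.65-fold.

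Satb1 measured 8.66 and 8.29 in Vav1 lymph node, against 10.26 and 10.15 in GFP lymph node, a fall of 1.73 (SE 0.19, adjusted p = 0.00018). Klf2 measured 7.84 and 7.21 in Vav1 lymph node, against 8.52 and 8.53 in GFP lymph node. Replicate 2, the array that stood apart, gave the low Klf2 value. The Klf2 change was -1.001 (SE 0.22, adjusted p = 0.010), and it was -0.68 without replicate 2.

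Bach2 measured 9.00 and 8.17 in Vav1 lymph node, against 9.09 and 9.10 in GFP lymph node. Replicate 1 nearly met the GFP values and replicate 2 lay well below. The change was -0.51 (SE 0.26, adjusted p = 0.20). Without replicate 2 it was -0.10, and without replicate 1 it was -0.93 with an adjusted p of 0.0029, so the array of 1 animal sets this value.

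S1pr1 measured 9.01 and 8.65 in Vav1 lymph node, against 10.04 and 10.01 in GFP lymph node. Both Vav1 values were lower, by a margin wider than their own spread. The change was -1.20 (SE 0.26, adjusted p = 0.0093), and the calls of S1pr1 and Klf2 were lost without either GFP lymph node array, with adjusted p up to 0.069 and 0.070.

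Il7r measured 8.87 and 9.31 in Vav1 lymph node, against 10.34 and 10.41 in GFP lymph node. Here replicate 2 was the higher Vav1 array, although its CD3 mean was the lowest of all arrays. Il7r fell by 1.29 (SE 0.24, adjusted p = 0.0048).

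Dapl1 measured 6.27 and 6.88 in Vav1 lymph node, against 9.47 and 9.71 in GFP lymph node. The Vav1 values fell inside the range of Vav1 spleen and were again low on their arrays, at percentiles 49.4 and 59.1. The change of -3.01 (SE 0.32, adjusted p = 0.00018), or 8.07-fold lower, was the largest fall among the 8 genes.

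Igfbp4 measured 8.44 and 8.20 in Vav1 lymph node, against 9.94 and 9.97 in GFP lymph node. The GFP lymph node arrays stood clear of all 8 other arrays, which lay between 8.20 and 8.68. Igfbp4 fell by 1.64 (SE 0.14, adjusted p = 4.4e-05).

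Without the array of ONCO3 the same 7 genes passed in lymph node, with the remaining Vav1 array taken to vary like the other groups. The changes were then -2.60 for Lef1, -1.54 for Satb1, -1.02 for S1pr1, -1.51 for Il7r, -3.31 for Dapl1 and -1.52 for Igfbp4, beside that of Klf2 above.

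The size of the change differed between the tissues for 2 of the 8 genes. The difference, the construct effect in lymph node minus that in spleen, was -1.10 (SE 0.24, adjusted p = 0.019) for Lef1 and -1.38 (SE 0.18, adjusted p = 0.0016) for Igfbp4, by limma with the animal as a random block. Over all genes, 7.11% passed in that direction. The call of Lef1 was lost without GFP spleen replicate 1 or without either GFP lymph node array, with adjusted p up to 0.093. The other 6 did not pass. Among them the difference was -1.24 for Dapl1 (95% interval -2.20 to -0.28, adjusted p = 0.11), -0.59 for Klf2 (-1.23 to 0.05), -0.56 for Satb1 (-1.11 to -0.01) and -0.40 for Il7r (-1.16 to 0.35). It was 0.25 for S1pr1 (-0.51 to 1.004) and 0.19 for Bach2 (-0.59 to 0.98). Without the lymph node array of ONCO3 the difference was -0.99 for Lef1 and -1.24 for Igfbp4, both still past the test, and Dapl1 passed as well at -1.66 (adjusted p = 0.012).

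T cell markers shifted the same way between the tissues. The interaction was lower for 8 of 13 T cell genes and higher for 0, with a median of -1.53, beside -0.57 for the 8 naive T cell genes. It was also lower for 4 of 10 stroma genes (median -1.40) and 3 of 7 white fat genes (median -1.78), and higher for 4 of 12 B cell genes (median 0.66). Relative to the CD3 mean of each array, which moved the median over all genes to 1.89, the interaction turned to 0.84 for Lef1 (adjusted p = 0.18) and 0.51 for Igfbp4 (adjusted p = 0.40). This scaling moves all genes of an array alike, and 11020 of 13393 genes passed as higher under it. Both values lay below the median over all genes, so the turn in sign says nothing particular about either gene. A lower interaction was also seen for T cell, stroma and white fat genes as deposited, so it is not shown to be particular to Lef1 and Igfbp4. The part of cell content was not tested.

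Levels within each construct show where the tissues parted. Between the GFP groups, Lef1 was 0.97 higher in lymph node than in spleen (SE 0.18, adjusted p = 0.0045), Dapl1 1.43 higher (SE 0.33, adjusted p = 0.013) and Igfbp4 1.35 higher (SE 0.14, adjusted p = 9.3e-05). Over all genes 11.6% were higher in GFP lymph node at this threshold. The groups did not overlap for any of the 8 genes. GFP lymph node was the higher group for 6 genes, as for 34.2% of all genes, and the lower for S1pr1 and Bach2, as for 33.0%. Neither S1pr1 (-0.39, adjusted p = 0.34) nor Bach2 (-0.39, adjusted p = 0.36) passed the test, and nor did Satb1 (0.37), Klf2 (0.31) or Il7r (0.38). The Dapl1 call was lost when any 1 of the 4 GFP arrays was left out, with adjusted p up to 0.092.

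Markers differed between the GFP tissues as well. In GFP lymph node 7 of 13 T cell genes were higher than in GFP spleen and 0 lower (median 1.01), 9 of 12 B cell genes were lower and 0 higher (median -0.93), and 7 of 7 white fat genes were higher (median 5.15). Relative to the CD3 mean, which moved the median over all genes to -1.16, none of the 3 calls held. Lef1 turned to -0.19 (adjusted p = 0.69), Dapl1 was at 0.26 (adjusted p = 0.66) and Igfbp4 at 0.21 (adjusted p = 0.65). Under this scaling 7450 of 13393 genes passed as lower and 163 as higher. All 3 values lay above the median over all genes, so the lost calls say nothing particular about these genes.

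Between the Vav1 groups none of the 8 genes passed by limma, at an adjusted p or at an unadjusted p of 0.05, and the arrays of both tissues overlapped for all 8. The changes, lymph node minus spleen, ran between -0.29 and 0.19, and 0.0373% of all genes passed in either direction. Leaving out Vav1 lymph node replicate 1, so that the array of ONCO3 alone stood for that group, 2 of the 8 passed: Klf2 at -0.61 (adjusted p = 0.019) and Bach2 at -0.55 (adjusted p = 0.035). That fit passed 3812 genes in all, against 36 when the array of ONCO3 was the one left out.

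In the order of the 4 group means, GFP lymph node stood first and GFP spleen next for 6 genes, Lef1, Satb1, Dapl1, Klf2, Il7r and Igfbp4, and the GFP order was the other way round for S1pr1 and Bach2. Vav1 spleen stood above Vav1 lymph node for 7 genes and below it for Dapl1, but the Vav1 arrays of both tissues overlapped each time. The means spanned 3.18 for Dapl1, 2.73 for Lef1 and 0.90 for Bach2, on the log2 scale.

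Markers of other cells moved with the constructs. In spleen, 0 of 12 B cell genes rose and 8 fell with Vav1, with a median change of -1.01, beside -1.01 for the 8 naive T cell genes, and Fcer2a (-1.78) and Ebf1 (-1.52) had the smallest p. The mean over Cd79a, Cd79b and Ms4a1 lay between 10.2 and 10.6 in Vav1 spleen and between 11.3 and 11.4 in GFP spleen. T cell genes did not move that way in spleen: 1 of 13 rose (Cd4, 1.04), 1 fell (Trat1, -1.05), the median was 0.32, and the CD3 mean lay between 9.51 and 9.85 in Vav1 spleen and between 9.00 and 9.16 in GFP spleen. Neutrophil genes rose, 10 of 10 in each tissue, and proliferation genes, 9 of 9 in each.

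In lymph node, 8 of 13 T cell genes fell and 0 rose, with a median of -1.21, and Trat1 (-2.31) and Cd8b1 (-1.83) had the smallest p. The CD3 mean was 9.55 and 8.18 in Vav1 lymph node, against 10.24 and 10.25 in GFP lymph node. Of 12 B cell genes 2 fell, with a median of -0.08. Of 10 stroma genes 6 fell (median -1.21, among them Lum at -2.95 and Col3a1 at -2.87), and 7 of 7 white fat genes fell (median -2.74). The white fat mean was 7.75 and 9.20 in Vav1 lymph node and 11.3 on both GFP lymph node arrays. In both spleen groups it was at most 6.64. Trat1 was the only T cell gene near background (a group mean under the 40th percentile of its arrays), in Vav1 lymph node, and no B cell gene was near background in any group.

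**Figure D3:**
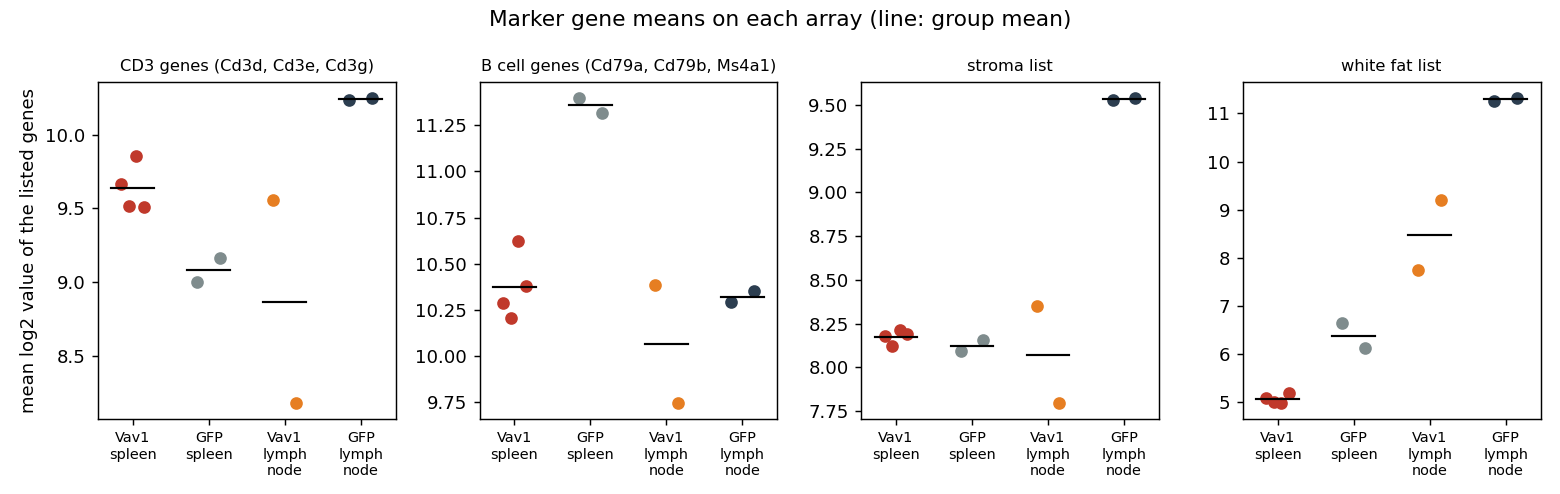
Mean log2 value of 3 CD3 genes, 3 B cell genes, the stroma list and the white fat list on each array, with lines for group means. The CD3 mean is higher in Vav1 spleen than in GFP spleen and lower in Vav1 lymph node than in GFP lymph node, and the B cell mean is lower in Vav1 spleen than in GFP spleen.

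Set relative to the CD3 mean of the same array, the spleen changes were larger and the same 6 genes passed. They were -2.17 (SE 0.36) for Lef1, -2.28 (SE 0.45) for Dapl1, -1.99 (SE 0.34) for S1pr1, -1.71 (SE 0.34) for Satb1, -1.41 (SE 0.39) for Il7r and -1.28 (SE 0.34) for Bach2. The median over all genes moved to -0.55 under this scaling, and 308 of 13393 genes passed as lower and 149 as higher. It moves all genes of an array alike, so the larger size of the falls only restates the higher CD3 mean in Vav1 spleen. Lef1 less the CD3 mean was -2.58, -2.41, -2.39 and -2.36 in Vav1 spleen, against -0.36 and -0.18 in GFP spleen. Vav1 replicate 3, the highest Lef1 value as deposited, then lay between the others.

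In lymph node the same scaling moved the median over all genes to 1.36, and the genes separated. Lef1 (-1.36, SE 0.41, adjusted p = 0.0077) and Dapl1 (-1.64, SE 0.52, adjusted p = 0.0092) remained lower. Lef1 less the CD3 mean was -2.36 and -1.25 in Vav1 lymph node, against -0.45 and -0.44 in GFP lymph node, so both Vav1 arrays were lower and replicate 2 was nearer. Satb1 was at -0.35 and Igfbp4 at -0.26, neither past the test. S1pr1 (0.18), Klf2 (0.37) and Il7r (0.09) changed sign without passing, and Bach2 was higher at 0.86 (adjusted p = 0.048). Under this scaling 11107 of 13393 genes passed as higher and 85 as lower. Bach2 lay below the median over all genes, so its call as higher says nothing particular about it. Il7r less the CD3 mean was -0.69 and 1.13 in Vav1 lymph node, against 0.11 and 0.16 in GFP lymph node, on both sides of the GFP arrays. S1pr1 was at -0.55 and 0.47 against -0.20 and -0.24, also on both sides. Klf2 was at -1.71 and -0.97, against -1.72 on both GFP arrays. For Il7r, S1pr1 and Klf2 the higher Vav1 value was that of replicate 2, the array that stood apart.

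Relative to the B cell mean, the falls in spleen were smaller for Lef1, S1pr1, Dapl1 and Satb1, while Il7r, Bach2, Klf2 and Igfbp4 turned above 0. The median over all genes moved to 0.99. Lef1 (-0.63, adjusted p = 0.011) and S1pr1 (-0.45, adjusted p = 0.046) passed as lower, and Klf2 (0.57, adjusted p = 0.014) and Igfbp4 (0.72, adjusted p = 0.0058) as higher. Dapl1 (-0.74), Satb1 (-0.17), Il7r (0.13) and Bach2 (0.25) did not pass. Under this scaling 11769 of 13393 genes passed as higher and 36 as lower. Klf2 and Igfbp4 lay below the median over all genes, so their calls as higher say nothing particular about them. In lymph node, all 8 genes stayed lower on both Vav1 arrays than on both GFP arrays relative to the B cell mean. Il7r was at -1.51 and -0.43, against 0.05 and 0.06 on the GFP arrays. S1pr1 was at -1.37 and -1.09 against -0.25 and -0.34. Klf2 was at -2.54 on both Vav1 arrays, against -1.78 and -1.82. Bach2 was at -1.39 and -1.58 against -1.21 and -1.25, a narrow gap. The median over all genes moved to 0.24 in lymph node. The part that cell content had in these results was not tested.

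**Figure D4:**
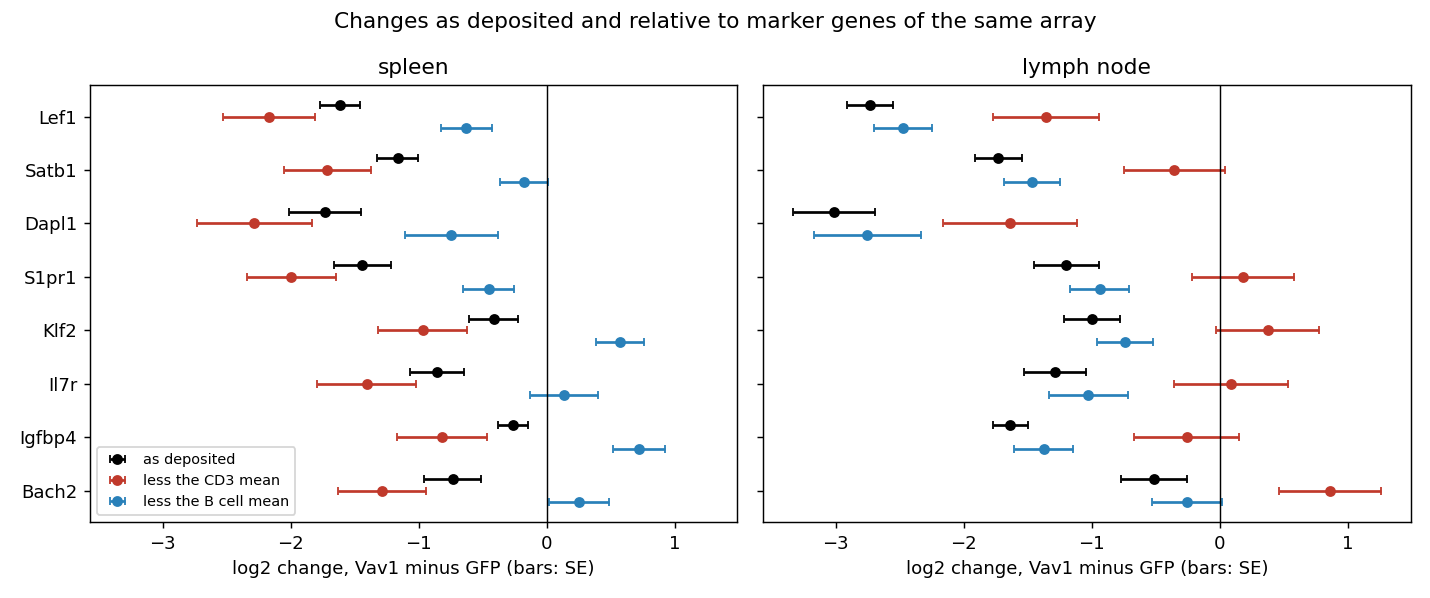
Log2 change, Vav1 minus GFP, of each gene as deposited (black), relative to the CD3 mean of the same array (red) and relative to the B cell mean (blue), with SE bars. Lef1 is below 0 in both tissues under all 3 scalings, and so are Satb1 and Dapl1.

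Other genes of the naive and quiescent state were read from a list of 30, of which 27 were tested. In spleen 9 fell and 2 rose, with a median of -0.36, and in lymph node 15 fell and 0 rose, with a median of -0.88. The 5 with the smallest p were Pecam1, an adhesion molecule of naive T cells and endothelium, at -0.91 in spleen and -1.21 in lymph node, Nsg2 at -1.01 and -1.54, the homing receptor Ccr7 at -0.87 and -1.20, the inhibitor of E proteins Id3 at -1.32 and -1.52, and the kinase Txk at -0.63 and -1.41. All 5 fell in both tissues. The 2 that rose in spleen, named after their values were seen, were Ly6c1 (1.10) and Socs3 (1.08).

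**Figure D5:**
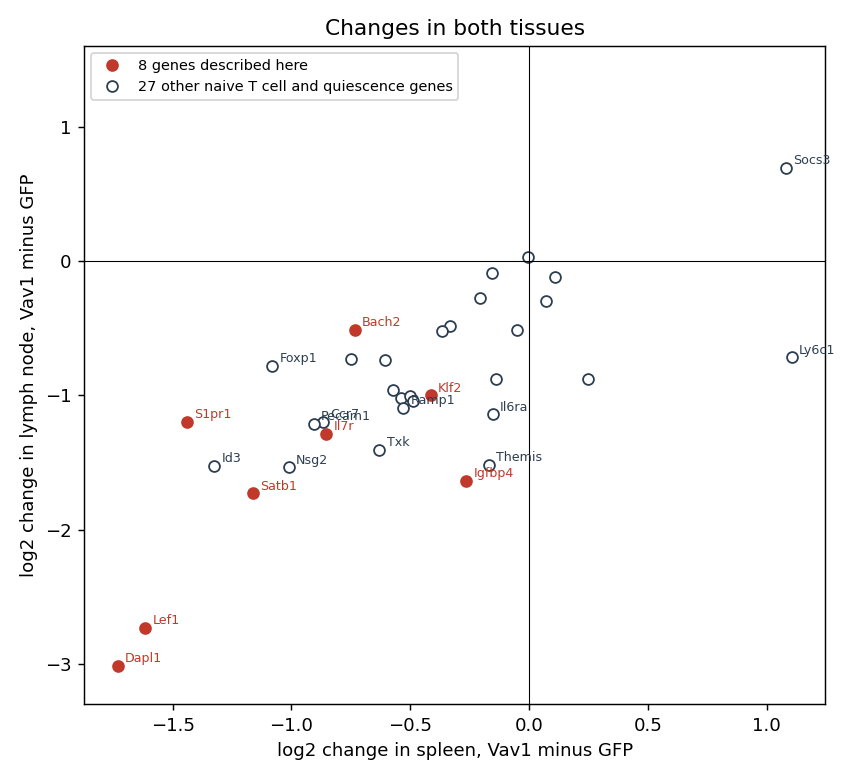
Log2 change with oncogenic Vav1 in spleen (x axis) and lymph node (y axis) for the 8 genes (filled) and 27 other naive T cell and quiescence genes (open). Lef1 and Dapl1 lie lowest on both axes, and Socs3 and Ly6c1 are farthest to the right.

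Transcripts of activated and effector T cells were set beside them. In spleen 11 of 16 rose and 0 fell, with a median of 1.17. Gzmk, a granzyme, rose by 5.03, the chemokine Ccl5 by 2.82, the checkpoint receptor Pdcd1 by 2.61 and the transcriptional regulator Id2 by 1.01. In lymph node 5 of 16 rose and 2 fell, with a median of 0.68. Gzmk rose by 3.73 there, while Ccl5 (-0.02), Pdcd1 (1.25) and Id2 (0.15) did not pass. The 2 that fell were the integrin Itgae (-1.26) and Cd69 (-0.83). Cd69 was named after its value was seen.

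The counts of the smaller lists that follow are set against the shares over all genes given above, which were 17.1% higher and 9.77% lower in spleen and 7.87% higher and 10.8% lower in lymph node. With lists of 4 to 12 genes, a count of 1 or 2 is near those shares and says nothing about the list. Around Lef1, partners and targets of TCF/LEF proteins gave 1 rise and 3 falls of 11 in spleen and 4 falls in lymph node. Tcf7l2, another TCF, rose by 1.26 in spleen and was at -0.05 in lymph node. The co-activator Bcl9l fell by 0.73 in spleen and by 1.03 in lymph node, and the co-repressors Tle4 (-0.48 in spleen, -0.55 in lymph node) and Tle1 (-0.60 and -0.84) fell in both. Axin2, a common target of the pathway, did not pass (-0.45 and -0.55); it was named after its values were seen.

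Around Klf2, 1 of 7 other Klf genes rose in spleen (Klf10, 0.58) and 1 fell in lymph node (Klf7, -0.53), which is near the background each time (median -0.01 and -0.31). Around Bach2, 1 of 5 genes rose in each tissue. They were Prdm1, which Bach2 represses, at 1.41 in spleen (0.73 in lymph node, not past the test), and the small Maf gene Mafg at 1.01 in lymph node (0.31 in spleen, not past it). In the list for Satb1 and Dapl1, Dap rose by 0.84 and Cux1 fell by 0.47 in spleen, while in lymph node Dap was at -0.32 and Cux1 at -0.07, neither past the test.

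Around S1pr1, 3 of 12 genes of sphingosine 1-phosphate signalling rose in spleen, among them the receptor S1pr2 at 0.92, and the list's median was 0.08. In lymph node 3 rose and 2 fell, with a median of 0.05. Mfsd2b, the exporter of sphingosine 1-phosphate in red cells, rose by 2.53 in lymph node, where 5 of 5 red cell genes rose with a median of 3.84. The kinase Sphk1 rose by 1.19. Spns2, the exporter of endothelial cells, fell by 0.85 where 5 of 11 endothelial genes fell. Their part in these changes was not tested.

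Around Il7r, 1 of 10 genes rose and 2 fell in spleen (median -0.02), and 3 fell in lymph node (median -0.36). The spleen counts are near the background. Il7, the ligand, which stromal cells make, fell by 1.36 in lymph node and was at -0.16 in spleen. Jak1, a kinase of the receptor, fell by 0.66 in lymph node, Foxo1, a factor that drives Il7r transcription, fell by 0.54 in spleen and by 1.02 in lymph node, and the inhibitor Socs1 rose by 1.34 in spleen. Around Igfbp4, 2 of 9 genes rose and 1 fell in spleen, and 3 fell in lymph node. Igfbp5 fell in both tissues (-1.75 in spleen, -1.45 in lymph node), while the growth factor Igf1 rose by 0.38 in spleen and fell by 0.93 in lymph node.

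The transcripts whose values ran most like each of the 8 over the 10 arrays were found by the root mean square difference after centring every gene on its own mean, over 12819 candidate genes. They are a description over arrays that share animals. The nearest was Atp1b1 for Lef1 (0.20, where Lef1 itself varied by 1.11), Dgka for Satb1 (0.10 of 0.72), Mmp12 for Dapl1 (0.27 of 1.30) and Tespa1 for S1pr1 (0.13 of 0.69). It was Galnt6 for Klf2 (0.10 of 0.40), Klrd1 for Il7r (0.12 of 0.58) and Egr3 for Bach2 (0.12 of 0.40). The 3 nearest to Igfbp4 were Col6a2 (0.11 of 0.63), Nudt7 (0.13) and Fn1 (0.13), and Col6a2 and Fn1 encode extracellular matrix proteins. The mean of the 8 genes ran closest to Inpp4b (0.12 of 0.67), Dgka (0.16) and Pecam1 (0.16). Among the 8 genes themselves, Klf2 and Bach2 were nearest each other (0.29) and Dapl1 and Bach2 farthest apart (1.17).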

How the data were processed

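Expression was measured on 10 single-colour Affymetrix arrays. The deposited values are log2 values that the authors made, per the submitters' processing notes, with RMA in R 3.6.3. Annotation version, filters and genome build are not given in the sources used here. RMA scales arrays to a common distribution, so a value is relative to the other transcripts of its array. The values were used as deposited and ran from 2.42 to 13.9. For arrays, the number of arrays limits the precision.

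Of 29129 probe sets, 19572 had 1 gene symbol in the platform annotation, and 19505 genes remained after taking the probe set with the highest mean for each of the 55 genes with several. Genes above the 40th percentile of their array on at least 2 arrays were tested, 13393 in all. Fits used limma 3.58.1 (R 4.3.3, statmod 1.5.0) on all 10 arrays (4 groups, 6 residual degrees of freedom, eBayes with a variance trend), with Benjamini-Hochberg adjusted p under 0.05 over all genes tested. The test is two-sided. The interaction and the tissue comparisons had animal as a random block (correlation -0.11). The replicates of a group carry different animal names. The comparisons of a tissue within a construct share arrays with the comparisons of constructs.

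The genes and lists were chosen with earlier results of these data known, so they are no independent support. From each related list the 5 genes with the smallest p in either comparison of constructs could be named, and from each marker list 2. Simulated data were used to test these fits. Promoter windows came from RefSeq (GRCm38.p6), and gene coordinates were used only to say whether a window lies inside its gene. Alternatives changed the filter, normalization, probe set summary, variance model, arrays in the fit, blocks, a fold threshold, a covariate (the median intronic control of each array) and scaling to CD3 or B cell genes.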

Additional observations from a re-analysis of the deposited data

Results flagged for a closer look

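In a group of 4 arrays, an array was marked where its gap to the nearest other array, divided by the range of the group, passed Dixon's 95% critical value. The 8 genes were tested in Vav1 spleen, the only group of 4, and chance marks about 1 in 20 groups. Of the 8, 4 were marked, and Lef1 only just passed the critical value. The 8 genes share the same 4 arrays, so their marks are not independent. The share of all genes marked on these arrays was not computed, so an excess among the 8 is not shown. Vav1 spleen replicate 3 was high for Lef1 (7.46, ratio 0.8294) and for Il7r (9.67, ratio 0.904), replicate 2 was low for Klf2 (7.48, ratio 0.853), and replicate 1 was high for Igfbp4 (8.45, ratio 0.871). The construct effect differed between lymph node and spleen by a tested interaction for Lef1 (-1.10) and for Igfbp4 (-1.38), with a larger fall in lymph node each time as deposited. Relative to the CD3 mean of each array, which moved the median over all genes to 1.89, these values turned to 0.84 and 0.51, neither past the test. As deposited, 8 of 13 T cell genes had a lower interaction too (median -1.53).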

How the results depend on the processing

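The counts of genes that passed were 6 of 8 in spleen, 7 in lymph node, 2 for the interaction, 3 between GFP tissues and 0 between Vav1 tissues, and of the 784 single-gene values recomputed for the first 4 comparisons 692 kept direction and side of the threshold. Leaving out 1 array at a time gave 1 to 4 genes for the interaction and 0 to 2 between Vav1 tissues. With the intronic control as covariate, 3 passed in spleen, 1 for the interaction and 5 between GFP tissues. S1pr1 then turned to -0.0635 for the interaction and 0.0240 between GFP tissues. That control was highest on the GFP spleen arrays, so these fits cannot fully separate it from the group. Lymph node arrays alone gave 4. Without both arrays of ONCO3, 6 passed for the interaction and 7 between GFP tissues. Without Vav1 lymph node replicate 1 the Bach2 interaction was -0.16. Relative to the CD3 mean, 3 passed in lymph node, Lef1 and Dapl1 as lower and Bach2 as higher. For the interaction 5 passed, each as higher and so opposite to the calls as deposited, as did 11020 of 13393 genes. The lymph node values that turned were S1pr1 0.18, Klf2 0.37, Il7r 0.0903 and Bach2 0.86, the interaction values Lef1 0.84, Satb1 1.36, Dapl1 0.74, Klf2 1.29, Il7r 1.55 and Igfbp4 0.51, and those between GFP tissues Lef1 -0.19, Satb1 -0.79, Klf2 -0.85 and Il7r -0.78. Relative to the B cell mean, 5 passed for the interaction, each as lower, and 6 between GFP tissues, each as higher. Over all genes 3123 passed as lower and 10260 as higher in these comparisons. The values that turned were Klf2 0.57, Il7r 0.13, Igfbp4 0.72 and Bach2 0.25 in spleen, S1pr1 -0.46 and Bach2 -0.67 for the interaction, and S1pr1 0.67 and Bach2 0.65 between GFP tissues. These scalings shift all genes of an array alike, and other causes were not tested. The replicate block gave the same 6, 7, 2, 3 and 0. Same-numbered arrays carry different animal names, so the numbers were not read as pairs. Their deviations correlated at r = 0.04 and 0.30 between Vav1 and GFP spleen and at -0.06 between Vav1 and GFP lymph node. Other same-numbered pairs reached 0.33 and 0.51 (Vav1 lymph node with Vav1 spleen) and 0.24 (Vav1 lymph node with GFP spleen). Spleen and lymph node arrays of the same animal correlated at -0.51 (ONCO2), 0.02 (ONCO3) and 0.03 (CTL2). In a group of 2 arrays the deviations mirror each other, so these values are not independent. Over all genes, 3596 passed in spleen, 1089 to 5520 with 1 array left out, 5849 without ONCO3, 916 with the covariate, 457 relative to CD3, 11805 relative to B cell genes and 2379 at 1.5-fold. In lymph node 2500 passed, 1040 to 4650 with 1 array left out, 1264 with array weights, 433 from its arrays alone, 11192 relative to CD3 and 1045 relative to B cell genes. For the interaction 1077 passed, 384 to 4201 with 1 array left out, 2726 without ONCO3, 11038 relative to CD3 and 3128 relative to B cell genes. Between GFP tissues 2144 passed, 863 to 4280 with 1 array left out, 4705 without ONCO3, 3879 with array weights, 7613 relative to CD3 and 10275 relative to B cell genes. Between Vav1 tissues 5 passed, 3 to 3812 with 1 array left out, 41 without ONCO3, 13 with no filter, 9 with the replicate block or without the animal block, 94 with the covariate, 10 relative to CD3 and 3 relative to B cell genes. The share of spleen calls that were higher was 63.6%, and 79.8% with arrays centred on their medians. Between GFP tissues these shares were 72.5% and 84.0%.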
